A study of Mus musculus with 16 samples.

Results

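The imprinted growth genes are 10 of the 18990 genes in the deposited expression table, taken by symbol: *H19*, *Igf2*, *Dlk1*, *Meg3*, *Peg3*, *Mest*, *Plagl1*, *Grb10*, *Igf2r* and *Ndn*. Each symbol matched 1 row, and all 10 passed the filter on low values with their mean over all libraries, so that none entered through a single group. They were followed in mouse embryonic fibroblasts (MEFs) during the first days of reprogramming, with and without knockdown of the chromatin-associated factors *Wdr5*, *Brca1* and *Bard1*. The study asked how these factors act in early reprogramming.

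The cells were wild-type primary MEFs of the BL6 strain, reprogrammed at passage 2. All of them, controls included, carried an rtTA lentivirus and the tet-inducible STEMCCA lentivirus with *Oct4*, *Sox2*, *Klf4* and *c-Myc* (OSKM). All received 40 nM of pooled siRNAs and then medium with serum, 2 ug/mL doxycycline, 3 uM chiron, 0.25 uM Alk5i, 50 ug/mL ascorbic acid and LIF. The siRNA pools were non-targeting (nt), siWdr5, siBrca1 or siBard1, and RNA was collected on day 3 or day 6, which gave 8 groups of 2 libraries and 16 libraries in all. The p-values measure the spread between these libraries. RNA came from whole cultures, so that a lower value cannot tell fewer expressing cells from less RNA per cell. A BL6 embryo has the same sequence on both parental copies of a gene, and expression is the sum of the 2 copies, so imprinting itself was not measured.

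Genomic imprinting marks a gene by the parent it came from, so that 1 parental copy is expressed and the other is kept silent. The choice of copy goes back to DNA methylation set in the egg or sperm. Many imprinted genes act on fetal growth: those expressed from the father's copy tend to favour it and those from the mother's copy to restrain it. *Igf2*, *Dlk1*, *Peg3*, *Mest*, *Plagl1* and *Ndn* are expressed from the paternal copy. *H19*, *Meg3*, *Igf2r* and *Grb10* are expressed from the maternal copy in most tissues. Imprinted transcripts are abundant in embryonic mesenchyme, from which fibroblasts are grown, and the *Dlk1*-*Dio3* domain is known for losing expression of its maternal RNAs in some induced pluripotent stem cell lines.

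Promoters of 5 members are printed here to show their CpG sites, the sites at which DNA is methylated. They were chosen with the results known: *Dlk1* and *Meg3* as opposite copies of 1 domain, *Peg3* as called higher in every knockdown at day 3, and *Mest* and *Igf2r* as moving in opposite directions in siBrca1. Each is the 250 bases before a RefSeq start site on GRCm38.p6, 5′ to 3′ on the strand of the gene, and the capitals mark CG, the CpG dinucleotide.
*Dlk1* promoter, chr12:109452573-109452822, plus strand: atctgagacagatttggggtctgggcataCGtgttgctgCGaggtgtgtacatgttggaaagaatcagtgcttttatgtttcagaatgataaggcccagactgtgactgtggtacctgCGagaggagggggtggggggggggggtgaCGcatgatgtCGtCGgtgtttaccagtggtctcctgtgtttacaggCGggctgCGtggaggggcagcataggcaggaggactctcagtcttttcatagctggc
*Meg3* promoter, chr12:109540746-109540995, plus strand: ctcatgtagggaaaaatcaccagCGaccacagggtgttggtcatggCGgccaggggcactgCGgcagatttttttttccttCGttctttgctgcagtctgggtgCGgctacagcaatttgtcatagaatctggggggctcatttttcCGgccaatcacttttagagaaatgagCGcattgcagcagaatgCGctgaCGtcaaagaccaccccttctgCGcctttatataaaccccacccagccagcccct
*Peg3* promoter, chr7:6730420-6730669, minus strand: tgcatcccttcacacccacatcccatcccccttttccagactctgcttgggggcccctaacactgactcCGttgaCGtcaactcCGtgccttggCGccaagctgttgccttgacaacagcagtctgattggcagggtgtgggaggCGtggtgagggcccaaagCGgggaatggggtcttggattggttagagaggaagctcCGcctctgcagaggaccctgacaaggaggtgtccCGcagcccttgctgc
*Mest* promoter, chr6:30737800-30738049, plus strand: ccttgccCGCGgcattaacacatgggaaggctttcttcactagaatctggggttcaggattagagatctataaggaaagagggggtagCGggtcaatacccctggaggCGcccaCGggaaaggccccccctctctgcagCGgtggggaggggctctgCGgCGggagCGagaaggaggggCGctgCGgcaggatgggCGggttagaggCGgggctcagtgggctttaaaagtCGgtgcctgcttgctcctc
*Igf2r* promoter, chr17:12769707-12769956, minus strand: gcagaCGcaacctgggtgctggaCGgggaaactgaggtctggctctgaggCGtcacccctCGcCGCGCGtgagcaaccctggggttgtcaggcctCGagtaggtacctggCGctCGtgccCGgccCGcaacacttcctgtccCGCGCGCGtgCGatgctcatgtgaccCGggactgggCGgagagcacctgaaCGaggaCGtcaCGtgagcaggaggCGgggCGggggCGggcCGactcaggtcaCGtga
These windows hold 8 (*Dlk1*), 10 (*Meg3*), 8 (*Peg3*), 14 (*Mest*) and 27 (*Igf2r*) CpGs. RefSeq gave 16 windows for 9 of the 10 members, with 0 CpGs in the second *Meg3* window and 40 in the first *Grb10* window. The median of all 32851 windows of this length was 6 CpGs. At least 20 CpGs stood in 3 of the 16 member windows and in 17.9% of all windows. Methylation of these stretches was not measured, and whether an imprint lies in them was not examined.

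*H19*, *Igf2*, *Meg3* and *Mest* also carry miRNAs, and those of *H19* and *Mest* are shown. A change of the host transcript is the only reading these libraries give of them. The capitals mark the seed, bases 2 to 8. The miR-675 pair lies in an exon of *H19* and the miR-335 pair in an intron of *Mest*. The 4 mature miRNAs printed here have 4 different seeds, and their own levels were not measured.
mmu-miR-675-5p: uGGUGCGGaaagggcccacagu
mmu-miR-675-3p: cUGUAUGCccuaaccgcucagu
mmu-miR-335-5p: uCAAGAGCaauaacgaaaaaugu
mmu-miR-335-3p: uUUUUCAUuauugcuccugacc

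Expression is given as CPM, reads of a gene scaled to the size of the library, which are 2 to the power of the deposited log2 values and include a small prior of 0.136 CPM. The libraries held 11169738 to 26832534 reads (median 14618683.5), so that 3 reads were worth 0.115 to 0.260 CPM. Each siRNA lowered its own transcript at day 3. The log2 fold changes against nt were −1.31 (*Wdr5*), −1.57 (*Brca1*) and −0.62 (*Bard1*), with adjusted p = 3.02e-06, 7.90e-05 and 0.0422. The other targets were lower as well. *Bard1* was lower by −1.38 in siBrca1 (adjusted p = 7.26e-05) and by −1.03 in siWdr5 (adjusted p = 0.00108), next to −0.62 in siBard1. *Wdr5* was lower by −0.87 and −0.48 in siBrca1 and siBard1 (adjusted p = 2.48e-05 and 0.00900), and *Brca1* by −0.86 in siWdr5 (adjusted p = 0.00796). In siBrca1 at day 3 *Brca1* stood at 37.5 CPM in replicate 1 and 19.4 CPM in replicate 2. At day 6 no target was called lower than in nt. The log2 differences were −0.27 for *Wdr5* with siWdr5 (adjusted p = 0.189), 0.01 for *Brca1* with siBrca1 (adjusted p = 0.988) and 0.11 for *Bard1* with siBard1 (adjusted p = 0.853). The fibroblast label was borne out by 11 of 11 fibroblast markers, which summed to 8343 to 9430.4 CPM in nt at day 3 and were higher at day 3 in siWdr5 (14652 to 15244 CPM), siBrca1 (12502 to 13519.6 CPM) and siBard1 (10259 to 11982 CPM). By day 6 the same sum was 5615 to 5732 CPM in nt, 10361 to 14018 CPM in siWdr5, 6965 to 7352 CPM in siBrca1 and 8748 to 8849 CPM in siBard1. The single markers did not all follow the sum: of the 11, 4 were called higher and 3 lower in nt at day 6 than at day 3, with a median log2 fold change of 0.47. Against nt at day 3, 9 of the 11 were called higher in siWdr5 (18.3% of all genes tested), 7 in siBrca1 (25.4%) and 1 in siBard1 (8.67%), and 0 lower. The summed level of 10 epithelial and early pluripotency markers went from 49.9 to 73.7 CPM at day 3 to 656 to 842 CPM at day 6 in nt. In the knockdowns it was 20.8 to 21.3 CPM (siWdr5), 23.5 to 37.8 CPM (siBrca1) and 38.8 to 47.0 CPM (siBard1) at day 3. By day 6 it was 366 to 581 CPM in siWdr5, 677 to 991 CPM in siBrca1 and 598 to 633 CPM in siBard1. Of 5 proliferation markers the sum at day 3 was 1178 to 1208 CPM in nt, 960.4 to 1017 CPM in siBard1, 699 to 752 CPM in siWdr5 and 367 to 688 CPM in siBrca1. Summed markers of other cell types at day 3 were 33.2 to 172 CPM for skeletal muscle (2 of 5 markers in the table), 24.5 to 59.3 CPM for endothelium (5 of 5, of which 1 never exceeded 3 reads), 21.5 to 78.2 CPM for chondrocytes (4 of 5), 13.2 to 60.2 CPM for adipocytes (5 of 5), 5.47 to 13.7 CPM for macrophages (3 of 5), 2.39 to 6.90 CPM for neural crest and glia (4 of 5) and 1.11 to 6.17 CPM for keratinocytes (4 of 4). The skeletal muscle, chondrocyte, adipocyte and macrophage sums were higher in all 3 knockdowns than in nt at day 3. The 2 skeletal muscle markers did not move together in siBrca1, where 1 was called higher and 1 lower. The part of cell composition or proliferation in the results below was not tested.

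All 10 genes were expressed in every library, the fewest reads being 73 for *Dlk1*. Per kilobase of annotated exon, which allows levels of different genes to be compared, *H19* was highest in nt at day 3 with a mean of 333 CPM per kb. *Grb10* (76.3 CPM per kb) and *Igf2r* (57.9 CPM per kb) followed, then *Peg3* (17.6 CPM per kb) and *Mest* (11.9 CPM per kb). *Plagl1* (9.23 CPM per kb), *Ndn* (8.94 CPM per kb) and *Igf2* (6.55 CPM per kb) lay near each other, with no order claimed among them, above *Meg3* (3.75 CPM per kb) and *Dlk1* (2.54 CPM per kb). By their mean over the 16 libraries *H19* was above 99.8% of the genes in the table, *Igf2r* above 99.5% and *Grb10* above 99.3%. These levels are descriptive. By day 6 *Igf2r* at 84.6 CPM per kb stood above *Grb10* at 45.9 CPM per kb in nt.

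**Figure D1:**
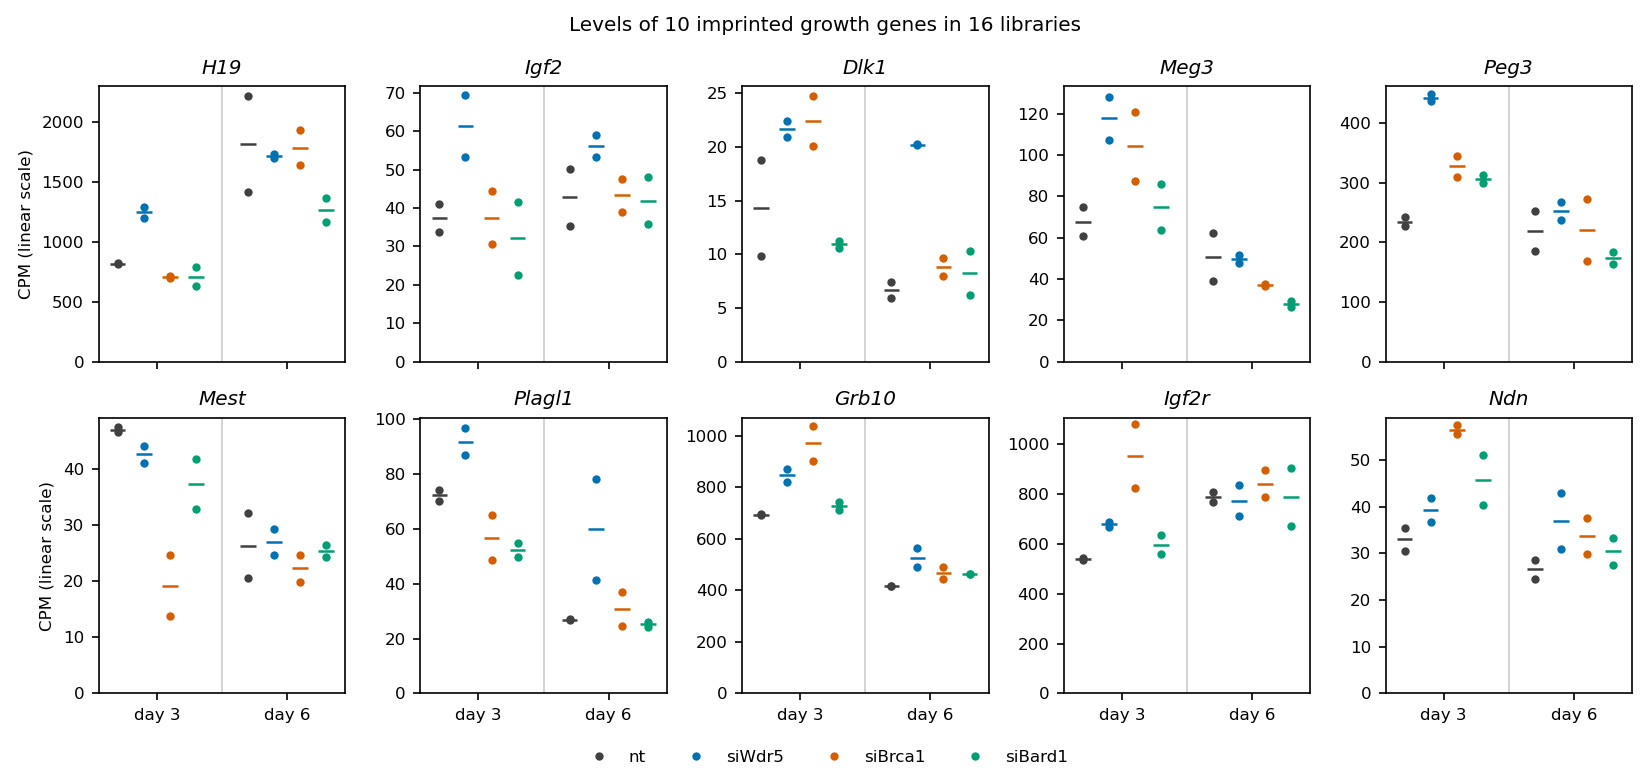
Level of each gene in CPM (linear axis from 0) in the 16 libraries. Points are libraries, short lines are means of 2 libraries, and colours are the siRNA groups. *Mest* in siBrca1 at day 3 (24.6 and 13.8 CPM) and *Dlk1* in siWdr5 at day 6 (20.3 and 20.2 CPM) stand apart from the nt libraries of the same day.

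Over reprogramming of nt cells, 4 of the 10 genes fell from day 3 to day 6 and 2 rose. *Plagl1*, *Dlk1*, *Mest* and *Grb10* fell, while *H19* and *Igf2r* rose. Of all 14028 genes tested, 27.1% were called lower and 19% higher at an adjusted p below 0.05. The median log2 fold change was −0.38 over the 10 members and −0.07 over all genes tested. In the knockdowns the falling genes were again more numerous than the rising ones. siBrca1 had 6 members lower (28.9% of all genes) and 1 higher (20.5%), and siBard1 had 5 lower (17.7%) and 1 higher (17.0%). siWdr5 had 5 lower (10.4%) and 0 higher (14.9%), with 6 members of the 10 at an unadjusted p below 0.05 in either direction and 5 called by limma-voom on recovered reads.

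**Figure D2:**
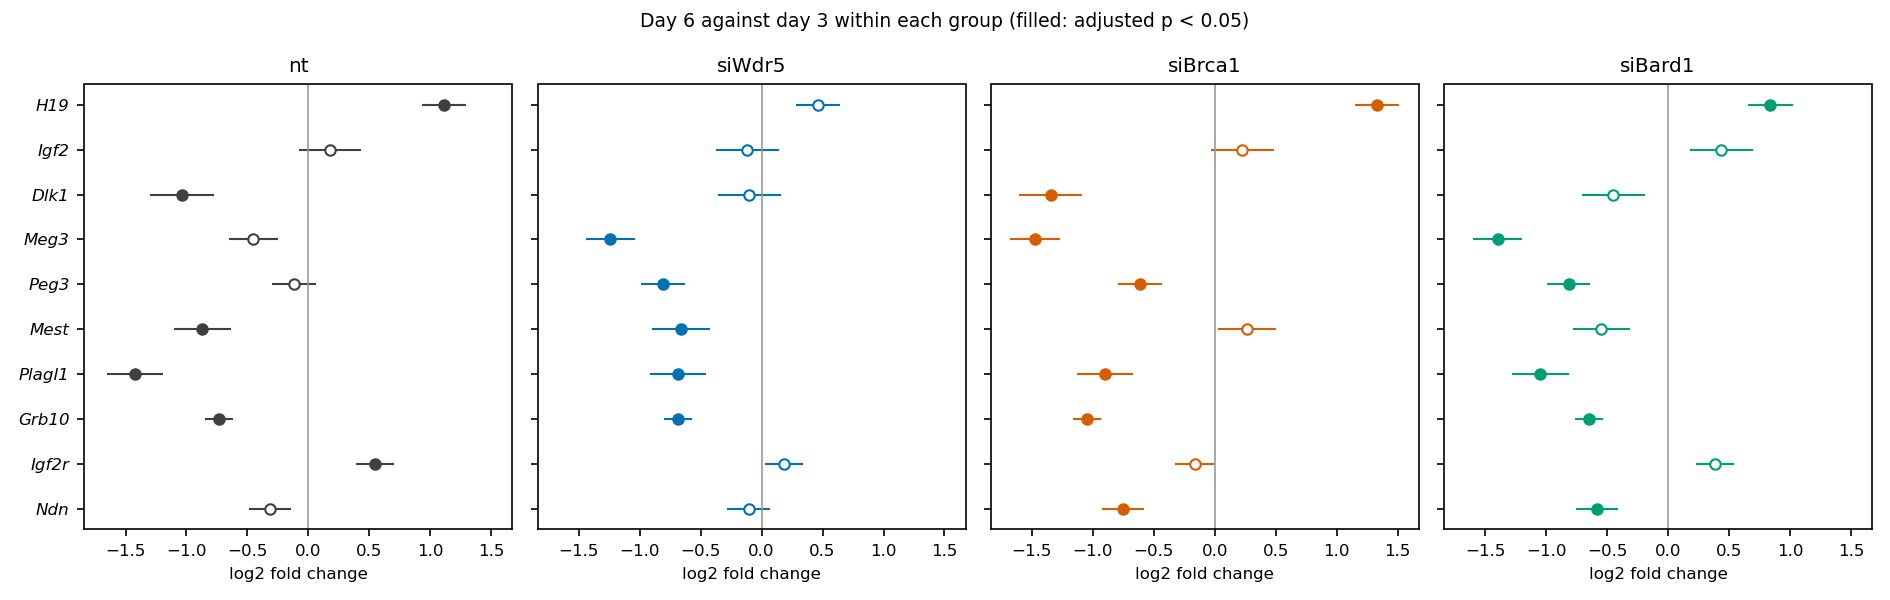
Log2 fold change of day 6 against day 3 (horizontal axis) in nt, siWdr5, siBrca1 and siBard1, with bars of 1 standard error from the limma fit. Filled points have an adjusted p below 0.05 over all genes tested. *Grb10* and *Plagl1* are filled on the lower side in each of the 4 panels.

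Knockdown at day 3 gave 16 calls among the 30 pairs of gene and siRNA. siWdr5 had 5 members higher (18.3% of all genes tested were called higher) and 0 lower (16.8% lower), where 8 of the 10 had an unadjusted p below 0.05 and 7 were called by limma-voom. siBrca1 had 6 higher (25.4%) and 2 lower (21.8%). siBard1 had 2 higher (8.67%) and 1 lower (5.87%). The members' median was 0.47, 0.48 and −0.08 on the log2 scale for siWdr5, siBrca1 and siBard1 in turn, against −0.04, 0.00 and −0.02 for all genes tested. Only *Mest* in siBrca1 was past 2-fold. The 3 comparisons share the same 2 nt libraries, and without nt day 3 replicate 1 the 16 calls became 8, without siWdr5 day 3 replicate 1 they became 10.

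**Figure D3:**
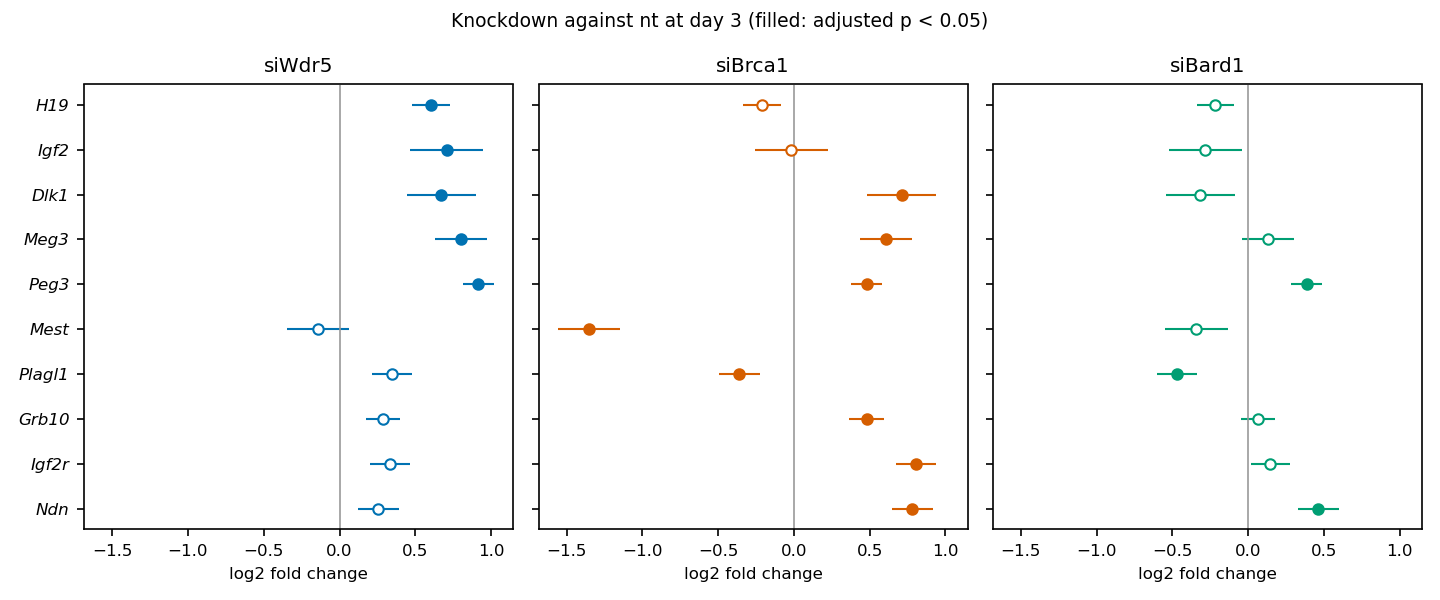
Log2 fold change of each knockdown against nt at day 3 (horizontal axis), with bars of 1 standard error from the limma fit of 2 libraries per group. Filled points have an adjusted p below 0.05 over all genes tested. *Peg3* is filled and higher in the 3 panels, and *Mest* in siBrca1 lies farthest from 0.

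By day 6 few differences from nt were called. In siWdr5 2 members were higher, *Dlk1* and *Plagl1*, where 16.1% of all genes were called higher. 0 members were lower there (5.70% of all genes), with 4 of 10 members at an unadjusted p below 0.05 and 2 called by limma-voom. siBrca1 had 0 members called (0.00% of all genes higher and 0.00% lower), 0 at an unadjusted p below 0.05 and 0 by limma-voom. siBard1 likewise had 0 members called by limma (0.0784% of all genes higher and 0.00% lower) and 0 by limma-voom, with 1 at an unadjusted p below 0.05. Over the 10 members the log2 fold changes ran from −0.42 to 0.40 in siBrca1 and from −0.82 to 0.27 in siBard1. In these libraries *Brca1* and *Bard1* were themselves not called different from nt, with 35.9 and 40.1 CPM of *Brca1* in siBrca1 against 33.2 and 42.6 CPM, and 12.6 and 14.5 CPM of *Bard1* in siBard1 against 11.3 and 14.0 CPM. The targets had themselves changed in nt from day 3 to day 6, by −0.47 (*Wdr5*), −1.09 (*Brca1*) and −1.24 (*Bard1*) on the log2 scale (adjusted p = 0.00539, 7.09e-04 and 1.87e-04). Over the same days no change was called for *Brca1* in siBrca1 (0.49, adjusted p = 0.0691) or *Bard1* in siBard1 (−0.52, adjusted p = 0.0621). *Wdr5* in siWdr5 rose over these days by 0.57 (adjusted p = 0.00323). The day 6 comparisons therefore describe cells in which the target transcript was no longer called lower than in nt. The nt level of each target had fallen, and in siWdr5 the level of *Wdr5* had also risen. The 2 siWdr5 calls became 0 without siWdr5 day 6 replicate 2 and 1 without either nt library.

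*H19* and *Igf2* share a domain on chromosome 7, where the untranslated RNA and the growth factor are expressed from opposite parental copies. *H19* (ENSMUSG00000000031, GENCODE vM21 chr7:142575529-142578143, minus strand) was the most abundant member. At day 3 *H19* stood at 817 and 822 CPM in nt, 1199 and 1294 CPM in siWdr5, 715 and 700.0 CPM in siBrca1, and 788 and 630.5 CPM in siBard1. At day 6 it stood at 1414 and 2222 CPM in nt, 1738 and 1702 CPM in siWdr5, 1641 and 1933 CPM in siBrca1, and 1164 and 1367 CPM in siBard1. Both siWdr5 libraries were above every other library of day 3, and at day 6 they lay within the nt range. *H19* rose in nt by 1.11 (SE 0.18, adjusted p = 1.56e-04) from day 3 to day 6. It also rose in siBrca1 by 1.33 (adjusted p = 2.37e-05), and by 0.84 with siBard1 (adjusted p = 0.00222). In siWdr5, where it was already higher than nt at day 3 by 0.60 (SE 0.12, adjusted p = 0.00228), the change to day 6 was 0.47 and not called (adjusted p = 0.0703). The siWdr5 course of *H19* was not shown to differ from that of nt (−0.65, adjusted p = 0.138). Among the knockdowns at day 3, *H19* was 0.82 higher in siWdr5 than in siBrca1 (adjusted p = 8.97e-04) and 0.82 higher than in siBard1 (adjusted p = 0.00143). Its log2 differences from nt in siBrca1 and siBard1 were −0.21 and −0.22 (adjusted p = 0.177 and 0.253).

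*Igf2* (ENSMUSG00000048583, chr7:142650766-142666816, minus strand), the ligand of the group, was far lower than *H19* and spread more between replicates. At day 3 it stood at 41.2 and 33.8 CPM in nt, 69.4 and 53.4 CPM in siWdr5, 44.5 and 30.5 CPM in siBrca1, and 41.6 and 22.6 CPM in siBard1. At day 6 it stood at 35.4 and 50.3 CPM in nt, 53.3 and 59.0 CPM in siWdr5, 47.6 and 39.0 CPM in siBrca1, and 48.0 and 35.9 CPM in siBard1. The siWdr5 libraries did not overlap nt on either day, while the other groups did. *Igf2* was called higher in siWdr5 at day 3 (log2 fold change 0.71, SE 0.24, adjusted p = 0.0352) and relative to siBard1 (0.99, adjusted p = 0.0225). Neither call is firm. Against nt it was lost when any 1 of the 4 libraries was left out (adjusted p = 0.0581 to 0.277), and against siBard1 without siBard1 replicate 2 (0.288) or either siWdr5 library (0.267 and 0.0908). The nt course gave 0.18 (adjusted p = 0.601). In GENCODE vM21, 62.8% of the *Igf2* exon bases are shared with Gm49394, a gene model on the same strand, and how reads in that stretch were assigned is not given in the sources used here.

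*Igf2r* (ENSMUSG00000023830, chr17:12682406-12769664, minus strand) encodes the receptor that takes IGF2 from the cell surface to the lysosome. Its levels at day 3 were 534 and 543 CPM in nt, 666 and 689.8 CPM in siWdr5, 822 and 1079 CPM in siBrca1, and 635 and 559.8 CPM in siBard1. Day 6 gave 768 and 806 CPM in nt, 710.4 and 837 CPM in siWdr5, 897 and 786 CPM in siBrca1, and 671 and 904 CPM in siBard1. Both nt libraries of day 3 were the lowest of the 16, and at day 6 the nt libraries overlapped those of each knockdown. *Igf2r* rose in siBrca1 at day 3 by 0.81 (SE 0.13, adjusted p = 2.54e-04), a call that held without any 1 library, and was 0.66 higher there than in siBard1 (adjusted p = 0.00564, lost without siBard1 replicate 2 at 0.0961). It was 0.47 lower in siWdr5 than in siBrca1 (adjusted p = 0.0268), a difference that was lost without siBrca1 replicate 2 (0.234) or either siWdr5 library (0.173 and 0.129). The nt cells rose by 0.55 from day 3 to day 6 (SE 0.16, adjusted p = 0.00986), and this was lost without nt day 3 replicate 1 (0.0557) or nt day 6 replicate 2 (0.0576). In siWdr5 at day 3 the log2 difference from nt was 0.33 (adjusted p = 0.0643). *Airn*, the antisense RNA that silences the paternal *Igf2r* copy, had 4.62 to 5.42 CPM as group means at day 3. In nt *Airn* rose by 1.35 to day 6 (adjusted p = 0.00212), and at day 6 it was lower in siWdr5 than in nt by −1.42 (adjusted p = 0.00362).

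*Grb10* (ENSMUSG00000020176, chr11:11930508-12038683, minus strand) encodes an adaptor that dampens signalling from the insulin and IGF1 receptors. At day 3 *Grb10* stood at 695 and 691 CPM in nt, 818 and 872 CPM in siWdr5, 901 and 1038 CPM in siBrca1, and 741 and 710.2 CPM in siBard1. At day 6 it stood at 418 and 415 CPM in nt, 491 and 562 CPM in siWdr5, 444 and 491 CPM in siBrca1, and 463 and 462 CPM in siBard1. Every day 6 library was below every day 3 library. *Grb10* fell by 0.73 on the log2 scale in nt (SE 0.11, adjusted p = 1.10e-04), in siWdr5 by 0.69 (adjusted p = 5.90e-04), in siBrca1 by 1.05 (adjusted p = 3.14e-06) and by 0.65 with siBard1 (adjusted p = 5.11e-04), and each of these calls held without any 1 library. At day 3 it was higher than nt in siBrca1 by 0.48 (SE 0.11, adjusted p = 0.00341). It was 0.41 higher in siBrca1 than in siBard1 (adjusted p = 0.0208), which was lost without siBard1 replicate 2 (0.115) or siBrca1 replicate 2 (0.148). The siWdr5 difference of 0.29 was not called (adjusted p = 0.0654), but it was called after centring on the median gene, with only the 4 compared libraries, and by limma-voom. *Cobl*, a neighbour of *Grb10* that encodes an actin nucleator, fell in nt by 1.63 to day 6 (adjusted p = 1.05e-05) and was 1.14 higher than nt in siWdr5 at day 6 (adjusted p = 0.00853).

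*Dlk1* and *Meg3* mark opposite parental copies of the *Dlk1*-*Dio3* domain on chromosome 12, the first encoding a membrane protein related to Notch ligands and the second a long non-coding RNA. *Dlk1* (ENSMUSG00000040856, chr12:109452823-109463336, plus strand), whose promoter is printed above, had the fewest reads. The day 3 libraries held 9.90 and 18.8 CPM in nt, 21.0 and 22.4 CPM in siWdr5, 20.1 and 24.8 CPM in siBrca1, and 11.3 and 10.6 CPM in siBard1. The day 6 libraries held 7.41 and 5.96 CPM in nt, 20.3 and 20.2 CPM in siWdr5, 9.68 and 7.96 CPM in siBrca1, and 10.3 and 6.26 CPM in siBard1. The 2 nt libraries of day 3 were far apart, and siWdr5 at day 6 stood above all other day 6 libraries. *Dlk1* was higher than nt in siWdr5 at day 6 by 1.61 (SE 0.24, adjusted p = 0.00375), which is 3.05-fold. Without siWdr5 day 6 replicate 2 the value was 1.61 and the call was lost (adjusted p = 0.0642). At day 3 it was higher by 0.67 in siWdr5 (SE 0.23, adjusted p = 0.0349) and by 0.71 in siBrca1 (SE 0.23, adjusted p = 0.0197). Both rested on nt day 3 replicate 1: without it the differences were 0.21 (adjusted p = 0.499) and 0.25 (adjusted p = 0.361). The siWdr5 call was also lost without siWdr5 replicate 1 (0.130) or replicate 2 (0.176).

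Comparisons between knockdowns do not use the nt means, although the nt libraries enter the estimate of spread behind the p-values. *Dlk1* was 0.99 higher in siWdr5 than in siBard1 (adjusted p = 0.0177). That call was lost without any 1 of the 4 libraries, with differences of 0.94 to 1.03. *Dlk1* was also 1.03 higher in siBrca1 than in siBard1 (adjusted p = 0.00873). Without siBard1 replicate 2 this difference was 0.98 and the call was lost. *Dlk1* fell in nt from day 3 to day 6 by 1.04 on the log2 scale (SE 0.26, adjusted p = 0.00411), and by 0.57 without nt day 3 replicate 2 (adjusted p = 0.103). In siBrca1 it fell by 1.35 (adjusted p = 5.23e-04), a call that held without any 1 library. Its change in siWdr5 over the same days was not called.

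*Meg3* (ENSMUSG00000021268, chr12:109541001-109571726, plus strand) was higher in siWdr5 and siBrca1 than in nt at day 3, and fell in all 3 knockdowns by day 6. On day 3 the libraries held 60.9 and 74.8 CPM in nt, 128 and 107 CPM in siWdr5, 87.5 and 121 CPM in siBrca1, and 63.6 and 86.1 CPM in siBard1. On day 6 they held 39.1 and 62.3 CPM in nt, 48.0 and 51.5 CPM in siWdr5, 36.5 and 37.6 CPM in siBrca1, and 29.5 and 26.7 CPM in siBard1. Libraries of siWdr5 and siBrca1 were above nt at day 3, and those of siBrca1 and siBard1 were below nt at day 6. *Meg3* was higher at day 3 by 0.80 in siWdr5 (SE 0.17, adjusted p = 0.00310, lost without siWdr5 replicate 1 at 0.0622) and by 0.61 in siBrca1 (SE 0.17, adjusted p = 0.01005, lost without nt replicate 1 at 0.110). It was 0.67 higher in siWdr5 than in siBard1 (adjusted p = 0.0293), which was lost without any 1 of the 4 libraries (0.0557 to 0.286). From day 3 to day 6 it fell by 1.24, 1.48 and 1.40 on the log2 scale in siWdr5, siBrca1 and siBard1 (adjusted p = 5.09e-04, 2.71e-05 and 1.09e-04), and these calls held without any 1 library. In nt the change was −0.45 (SE 0.20, adjusted p = 0.0799). Of the *Meg3* exon bases 6.79% are shared with Gm26906 on the opposite strand, and the strand setting of the counting is not given in the sources used here.

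Of the 5 other genes of this domain in the list, 4 were higher in siWdr5 at day 3 (18.3% of all genes tested), 3 in siBrca1 (25.4%) and 1 in siBard1 (8.67%), and 0 were lower. *Dio3*, which encodes the enzyme that inactivates thyroid hormone, was higher than nt at day 3 by 1.61, 0.66 and 0.70 in siWdr5, siBrca1 and siBard1 (adjusted p = 1.14e-04, 0.0208 and 0.0437), and at day 6 by 1.83 in siWdr5 (adjusted p = 0.00421). *Rian* and *Mirg*, maternal non-coding RNAs that carry small RNAs, were higher at day 3 in siWdr5 (*Rian* 0.76, adjusted p = 7.21e-04, and *Mirg* 0.68, adjusted p = 0.00791) and siBrca1 (*Rian* 0.54, adjusted p = 0.00376, and *Mirg* 0.88, adjusted p = 9.63e-04). *Rian* was lower than nt in siWdr5 at day 6 by −0.44 (adjusted p = 0.0453). *Rtl1*, a retrotransposon-derived gene needed in the placenta, was higher in siWdr5 at day 3 by 0.60 (adjusted p = 0.0171). *Begain*, at the far side of *Dlk1*, gave −0.51 in siWdr5 (adjusted p = 0.220). At day 6 *Dlk1* and *Dio3* were thus called higher in siWdr5 and *Rian* lower. *Meg3* (0.01, adjusted p = 0.975), *Rtl1*, *Mirg* and *Begain* were not called there, so the genes of a parental copy did not all move together. How firm the *Dio3* and *Rian* calls are was not examined.

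**Figure D4:**
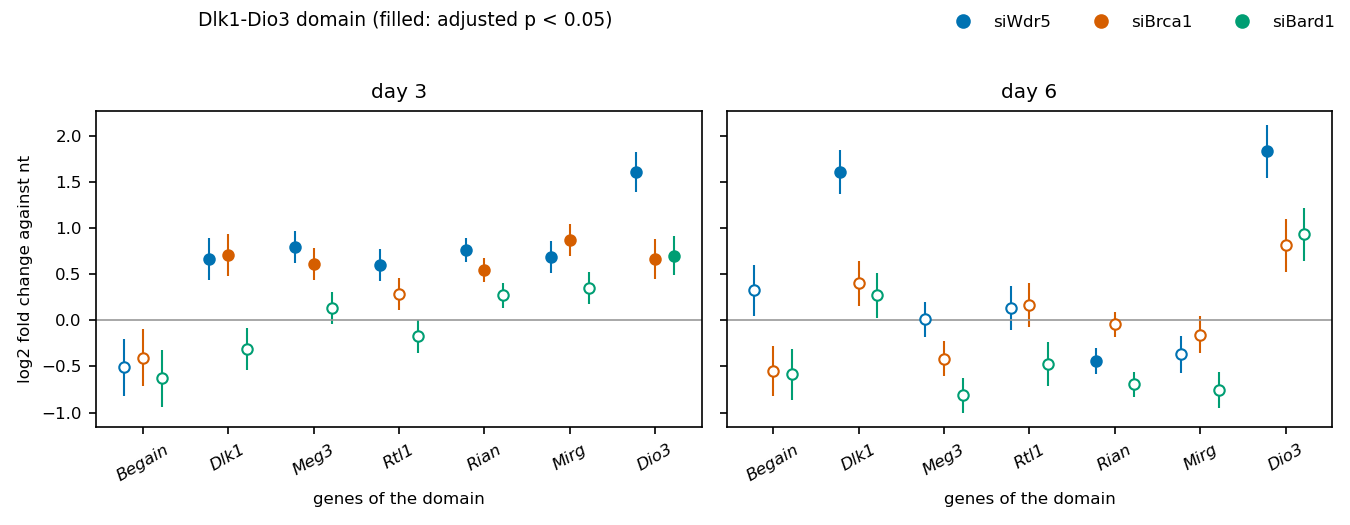
Log2 fold change against nt at day 3 and day 6 (vertical axis, bars of 1 standard error) for 7 genes of the *Dlk1*-*Dio3* domain in chromosome order. Filled points have an adjusted p below 0.05. In siWdr5 at day 6 *Dlk1* (1.61) and *Dio3* (1.83) are filled above 0 and *Rian* (−0.44) below it.

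*Peg3* and *Plagl1* encode zinc finger proteins that bind DNA. *Peg3* (ENSMUSG00000002265, chr7:6703892-6730431, minus strand) was higher in every knockdown at day 3. It stood then at 227 and 242 CPM in nt, 436 and 448 CPM in siWdr5, 309.8 and 345 CPM in siBrca1, and 313 and 299.7 CPM in siBard1. Day 6 levels were 185 and 252 CPM in nt, 237 and 268 CPM in siWdr5, 168 and 272 CPM in siBrca1, and 164 and 184 CPM in siBard1. None of the 6 knockdown libraries of day 3 overlapped nt. *Peg3* rose by 0.92 in siWdr5 (SE 0.10, adjusted p = 2.91e-05), and, with the same SE, by 0.48 and 0.39 in siBrca1 and siBard1 (adjusted p = 0.00162 and 0.0237). The siWdr5 and siBrca1 calls held without any 1 library, and the siBard1 call was lost without any 1 of its 4 (0.0614 to 0.222). It was 0.53 higher in siWdr5 than in siBard1 (adjusted p = 0.00694, lost without siBard1 replicate 2 at 0.0557 or either siWdr5 library at 0.0825 and 0.0858) and 0.43 higher than in siBrca1 (adjusted p = 0.0116, lost without either siWdr5 library at 0.0837 and 0.1002). From day 3 to day 6 *Peg3* fell on the log2 scale by 0.81 in siWdr5 (adjusted p = 0.00416, and 0.0506 without siWdr5 day 6 replicate 1), by 0.61 in siBrca1 (adjusted p = 0.0103, and 0.198 without siBrca1 day 6 replicate 1 or 0.0708 without siBrca1 day 3 replicate 2) and by 0.82 in siBard1 (adjusted p = 0.00260). In nt the change was −0.12 (adjusted p = 0.622). Its neighbour *Zim1*, a further zinc finger gene, was higher at day 3 by 1.03 in siWdr5 (adjusted p = 4.93e-04) and by 0.98 in siBrca1 (adjusted p = 3.63e-04).

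*Plagl1* (ENSMUSG00000019817, chr10:13060504-13131694, plus strand), a zinc finger protein that arrests the cell cycle, moved apart between the knockdowns. At day 3 it stood at 74.1 and 70.3 CPM in nt, 96.9 and 86.7 CPM in siWdr5, 64.9 and 48.7 CPM in siBrca1, and 54.8 and 49.6 CPM in siBard1. At day 6 it stood at 27.1 and 26.8 CPM in nt, 41.5 and 78.3 CPM in siWdr5, 24.4 and 37.1 CPM in siBrca1, and 26.1 and 24.3 CPM in siBard1. The siWdr5 libraries were above nt and the siBrca1 and siBard1 libraries below nt at day 3, and 1 siWdr5 library of day 6 was as high as nt at day 3. *Plagl1* fell by 1.42 on the log2 scale in nt (SE 0.23, adjusted p = 1.63e-04) and by 1.05 with siBard1 (adjusted p = 0.00269), and both calls held without any 1 library. It fell in siBrca1 by 0.90 (adjusted p = 0.00442, and 0.0502 without siBrca1 day 3 replicate 1 or 0.0674 without siBrca1 day 6 replicate 1). In siWdr5 it fell by 0.69 (adjusted p = 0.0405), a call lost without either day 3 library (0.194 and 0.104) or day 6 replicate 1 (0.533).

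Relative to nt at day 3, *Plagl1* was lower by −0.36 and −0.47 in siBrca1 and siBard1 (SE 0.13 for both, adjusted p = 0.0393 and 0.0326). Those calls were lost without either nt library or siBrca1 replicate 2 for siBrca1 (0.1004 to 0.357) and without any 1 of the 4 libraries for siBard1 (0.0731 to 0.205). The siBrca1 call was also lost with no filter on low values (adjusted p = 0.0783) and after centring on the median gene (0.0546). It was lost as well with only the 4 compared libraries (0.0853) and with no trend on mean expression (0.108). The siBard1 call was lost with no filter (0.0894) and with no trend (0.125). The siWdr5 difference was 0.35 (adjusted p = 0.0586). Set against each other, siWdr5 was 0.70 above siBrca1 (adjusted p = 0.00342, and 0.0737 without siWdr5 replicate 1) and 0.81 above siBard1 (adjusted p = 0.00267, and 0.0551 without siBard1 replicate 2 or 0.0775 without siWdr5 replicate 1). At day 6 *Plagl1* was 1.08 higher in siWdr5 than in nt (SE 0.27, adjusted p = 0.0195). That call was lost without nt replicate 1 (0.0893), nt replicate 2 (0.0977) or siWdr5 replicate 2, where the difference was 0.62 (adjusted p = 0.171).

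*Mest* (ENSMUSG00000051855, chr6:30723547-30748465, plus strand) encodes a hydrolase-like protein of the mesoderm and is the host of miR-335. Its day 3 levels were 46.5 and 47.4 CPM in nt, 41.1 and 44.1 CPM in siWdr5, 24.6 and 13.8 CPM in siBrca1, and 41.8 and 32.9 CPM in siBard1. Day 6 levels were 32.0 and 20.6 CPM in nt, 29.4 and 24.7 CPM in siWdr5, 19.8 and 24.7 CPM in siBrca1, and 26.5 and 24.3 CPM in siBard1. Both siBrca1 libraries of day 3 were below all other day 3 libraries, and the lower of them was replicate 2, in which *Brca1* was also lower. *Mest* fell in siBrca1 at day 3 by 1.35 on the log2 scale (SE 0.21, adjusted p = 1.54e-04), which is 2.55-fold lower than in nt, and this held without any 1 library. It was 1.21 higher in siWdr5 than in siBrca1 (adjusted p = 0.00175), which also held. It was lower in siBrca1 than in siBard1 by −1.01 (adjusted p = 0.00588), which was lost without either siBard1 library (0.0576 and 0.0923). Over the course *Mest* fell in nt by 0.87 (SE 0.23, adjusted p = 0.00645), or by 0.55 without nt day 6 replicate 2 (adjusted p = 0.110). In siWdr5 it fell by 0.66 (adjusted p = 0.0488), and this was lost without any 1 of the 4 libraries (0.0986 to 0.213). *Copg2*, a coat protein gene on the opposite strand that shares 23.1% of the *Mest* exon bases, differed the other way at day 3: it was higher by 0.64 and 0.47 in siBrca1 and siBard1 (adjusted p = 0.00180 and 0.0375).

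*Ndn* (ENSMUSG00000033585, chr7:62346569-62350262, plus strand) encodes necdin, a growth suppressor of the MAGE family. At day 3 it stood at 30.5 and 35.6 CPM in nt, 36.8 and 41.9 CPM in siWdr5, 57.4 and 55.6 CPM in siBrca1, and 51.0 and 40.3 CPM in siBard1. At day 6 it stood at 28.6 and 24.5 CPM in nt, 31.0 and 42.9 CPM in siWdr5, 37.6 and 29.9 CPM in siBrca1, and 33.3 and 27.6 CPM in siBard1. The siBrca1 libraries were the highest of day 3, and all knockdown libraries of that day were above nt. *Ndn* rose at day 3 by 0.78 in siBrca1 (SE 0.14, adjusted p = 3.95e-04), which held without any 1 library, and by 0.46 in siBard1 (SE 0.14, adjusted p = 0.0373), which was lost without either nt library (0.289 and 0.0863) or siBard1 replicate 1 (0.222). It was 0.53 lower in siWdr5 than in siBrca1 (adjusted p = 0.0187, lost without either siWdr5 library at 0.180 and 0.0674). From day 3 to day 6 it fell on the log2 scale by 0.75 in siBrca1 (adjusted p = 0.00197), and by 0.58 with siBard1 (adjusted p = 0.0162, lost without siBard1 day 3 replicate 1 at 0.156 or day 6 replicate 2 at 0.140). *Peg12*, a neighbour of *Ndn*, was lower than nt at day 3 by −0.73, −0.89 and −0.65 in siWdr5, siBrca1 and siBard1 (adjusted p = 0.00392, 5.90e-04 and 0.0198).

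Set directly against each other at day 3, the knockdowns differed in 16 of 30 pairs of gene and comparison. These differences do not use the nt means, but the nt libraries are part of the shared estimate of spread behind the p-values. siWdr5 against siBrca1 had 4 members higher (5.47% of all genes) and 2 lower (10.2%). Against siBard1, siWdr5 had 6 higher (4.85%) and 0 lower (3.78%), with 6 members at an unadjusted p below 0.05 in either direction and 6 called by limma-voom. siBrca1 against siBard1 had 3 higher (13.1%) and 1 lower (8.33%). *H19* and *Peg3* were the 2 members higher in siWdr5 than in both other knockdowns and also higher there than in nt. *Mest* was lower in siBrca1 than in all 3 other groups of day 3. Without siWdr5 replicate 1 the 16 calls became 7, without siWdr5 replicate 2 they became 9, and without siBard1 replicate 2 they became 8.

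The change against nt differed between the days for 3 members, all in siBrca1. For siBrca1, 1 member was called with a higher day 6 change (10.3% of all genes) and 2 with a lower one (10.3%). Subtracting the day 3 change from the day 6 change gave 1.13 for *Mest* (SE 0.33, adjusted p = 0.0251), −1.02 for *Meg3* (SE 0.29, adjusted p = 0.0209) and −0.71 for *Igf2r* (SE 0.22, adjusted p = 0.0341). Each made the difference from nt smaller at day 6 or turned its sign, and that of *Brca1* became smaller too, by 1.58 (adjusted p = 0.00390). *Mest* and *Igf2r* changed in nt by −0.87 and 0.55, while their siBrca1 courses of 0.26 and −0.17 were not called (adjusted p = 0.369 and 0.405). *Brca1* likewise changed in nt by −1.09 (adjusted p = 7.09e-04) and in siBrca1 by 0.49 (adjusted p = 0.0691). *Meg3* changed in siBrca1 by −1.48, and its nt change of −0.45 was not called. All 3 member calls were lost without nt day 3 replicate 1, siBrca1 day 3 replicate 2 or nt day 6 replicate 2. *Mest* and *Igf2r* were also lost without nt day 3 replicate 2 (0.0692 and 0.0858) or siBrca1 day 6 replicate 2 (0.0713 and 0.0868), and *Igf2r* without nt day 6 replicate 1 (0.0749). siWdr5 had 0 members called (3.40% of all genes with a higher and 1.03% with a lower day 6 change), with 5 at an unadjusted p below 0.05 and 0 by limma-voom. There the median of all genes was itself 0.12, the largest shift of the comparisons, against −0.12 for the members. siBard1 also had 0 called by limma (0.0214% and 0.0285% of all genes), with 2 at an unadjusted p below 0.05 and 0 by limma-voom. Hence for *Dlk1* in siWdr5 the larger difference at day 6 than at day 3 was not shown to differ between the days.

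Of the other imprinted genes in a list of 54, 45 were tested. At day 3 13 were higher and 6 lower in siWdr5 (18.3% and 16.8% of all genes tested), 15 higher and 7 lower in siBrca1 (25.4% and 21.8%), and 7 higher and 4 lower in siBard1 (8.67% and 5.87%). Their median log2 fold changes were 0.09, 0.24 and −0.00195, against −0.04, 0.00 and −0.02 for all genes tested. The largest called differences outside the members were in *Slc22a18*, a transporter gene, at 1.90 in siBrca1 (adjusted p = 0.00440), *Asb4*, at 1.88 in siBrca1 (adjusted p = 0.00108), *Dio3* at 1.61 in siWdr5 and *Nnat*, a neuronatin proteolipid gene, at −1.44 in siWdr5 (adjusted p = 7.53e-06). *Asb4* was near the floor, with 3 and 8 reads in nt and 19 and 23 reads in siBrca1 at day 3. Its mean passed the filter on low values only narrowly, with those siBrca1 libraries among the higher ones. The list for the *H19*-*Igf2* and *Kcnq1* domains had 9 tested genes, all on the *Kcnq1* side, from *Ascl2* to *Osbpl5*. At day 3, 4 of them were higher and 0 lower in siWdr5, 3 higher and 2 lower in siBrca1, and 1 higher and 1 lower in siBard1. *Cdkn1c*, a maternally expressed inhibitor of the cell cycle, was higher in siWdr5 by 0.69 (adjusted p = 0.00248) and lower in siBard1 by −0.71 (adjusted p = 0.00633). *Osbpl5*, for a lipid transfer protein, was higher by 1.01, 1.06 and 0.65 in siWdr5, siBrca1 and siBard1 (adjusted p = 3.97e-05, 1.53e-05 and 0.00316). In nt 5 of these 9 listed genes were higher and 0 lower at day 6 than at day 3 (19% and 27.1% of all genes tested). Among them were *Phlda2*, which limits placental growth, at 6.10 (adjusted p = 3.95e-07), *Ascl2* at 2.42 (adjusted p = 4.85e-05) and *Cdkn1c* at 1.71 (adjusted p = 2.19e-05).

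The partners of the IGF members were followed in a list of 8 genes, all tested. At day 3, 3 were higher in siWdr5 (18.3% of all genes tested), 3 in siBrca1 (25.4%) and 0 in siBard1 (8.67%), and 0 were lower in any of them. *Igf1r*, the receptor that carries the growth signal of IGF1 and IGF2, rose by 0.78 in siBrca1 (adjusted p = 1.66e-04) and by 0.41 in siWdr5 (adjusted p = 0.0157). *Irs1*, a docking protein of that receptor, rose by 0.80 in siWdr5 (adjusted p = 6.91e-05) and was 1.12 higher there at day 6 (adjusted p = 0.00210). *Igf1* rose by 1.06 in siWdr5 (adjusted p = 0.0317) and *Irs2* by 0.69 in siBrca1 (adjusted p = 3.21e-04). In nt 5 of the 8 fell from day 3 to day 6 (27.1% of all genes tested) and 1 rose (19%). *Igf1* was the 1 that rose, by 1.43 (adjusted p = 0.00559).

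Of the proteins that read or keep the imprint, 8 of the 9 listed were tested. 3 were lower in siWdr5 at day 3 (16.8% of all genes tested), 5 in siBrca1 (21.8%) and 3 in siBard1 (5.87%), and 0 were higher. *Uhrf1*, which brings the maintenance methyltransferase to replicating DNA, fell by 1.38 in siBrca1 on the log2 scale (adjusted p = 9.23e-05), and by 0.97 and 0.66 in siWdr5 and siBard1 (adjusted p = 0.00204 and 0.0389). *Dnmt1*, that methyltransferase, fell by 0.91, 0.56 and 0.53 in the same order (adjusted p = 2.84e-04, 0.0112 and 0.0341). *Ctcf*, the insulator protein that binds between *H19* and *Igf2*, fell in siBrca1 by 0.61 (adjusted p = 0.00165), and *Trim28*, a corepressor that protects imprints, by 0.55 and 0.44 in siBrca1 and siBard1 (adjusted p = 0.00116 and 0.0201). Both *Uhrf1* and *Dnmt1* are made mainly by dividing cells, and the summed proliferation markers given above were lower in the same groups. The part of that difference was not tested.

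Across the 16 libraries the genes most like each member were described by Pearson's r of log2 CPM, with no test, since all points share the steps of days and siRNAs. *Grb10* was followed most closely by *Ccdc6* (r = 0.9903), *Ap2a2* (r = 0.988) and *Clasp1* (r = 0.987). *Igf2r* was most like *Sqstm1* (r = 0.967), *Uap1l1* (r = 0.934) and *Hmox1* (r = 0.933), and *Meg3* most like *Rasgrp3* (r = 0.954), *Tnk2os* (r = 0.942) and *Zfp462* (r = 0.939). For *Plagl1* the closest were *Prss35* (r = 0.952), *Prkag2* (r = 0.947) and *Il17ra* (r = 0.946), for *Ndn* *Man2b1* (r = 0.944), 1600014C10Rik (r = 0.937) and *Dusp3* (r = 0.930), and for *H19* *Mmp13* (r = 0.938), *Sema6d* (r = 0.933) and *Slc13a4* (r = 0.928). *Dlk1* had *Hoxc10* (r = 0.932) and *Nisch* (r = 0.926), *Peg3* had *Ist1* (r = 0.930), *Fgd6* (r = 0.927) and *Cfap69* (r = 0.919), and *Mest* had *Ppa1* (r = 0.928), *Me2* (r = 0.924) and *Aven* (r = 0.914). *Igf2* had the loosest match, with *Abtb2* (r = 0.833), *Map3k6* (r = 0.813) and *Alpl* (r = 0.811). Among the members themselves *Meg3* and *Peg3* (r = 0.880) and *Meg3* and *Grb10* (r = 0.864) were closest, and *Mest* and *Igf2r* ran opposite (r = −0.878). *H19* and *Igf2*, which share enhancers, had r = 0.556, and *Dlk1* and *Meg3* 0.681 (n = 16 libraries).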

How the data were processed

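Total RNA was depleted of ribosomal RNA and sequenced in pairs. The authors aligned reads to mm10 (GRCm38) with STAR 2.5.2b and deposited log2 CPM values made with edgeR 3.20.9, 1 table for the 16 libraries. The read counter, its annotation and strand setting are not given in the sources used here. The steps of the deposited log2 values gave whole reads, within 0.1 read, for all genes, and these gave the depth of each library.

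The 14028 genes whose log2 CPM averaged 0 or more were fitted with limma 3.58.1 (R 4.3.3, trend on mean expression, Benjamini-Hochberg adjustment over all genes tested). Day 3 and day 6 were each fitted with 8 libraries, and courses and differences between days with all 16. A call is an adjusted p below 0.05. The fit was tested on simulated data. Alternatives were another filter, a pseudocount of 1 CPM, centring, fewer libraries, no trend, limma-voom on recovered reads, a replicate block, a fold threshold and leaving out each library. They were examined for the 10 members alone, so calls of neighbours and list genes had no such check. For a single difference, only the libraries of the groups it compares were left out in turn. For a difference between days these were the nt and knockdown libraries of both days. A call said to hold without any 1 library held in these fits. Gene positions are from GENCODE vM21. The members, the lists and the tests were chosen with earlier results of these data known. All 10 members are named, with some of their neighbours in a domain and, of each list, up to 4 genes with the largest called change at day 3. The named neighbours were mostly ones with a called difference, so they do not stand for the whole of a domain. Likeness was Pearson's r over the 16 libraries, with the 3 closest genes named for each member, of which 1 is not reported here.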

Additional observations from a re-analysis of the deposited data

Results flagged for a closer look

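The change against nt differed between day 3 and day 6 in siBrca1 for 3 members by the interaction term of the limma fit over all 16 libraries. Taking the day 3 change from the day 6 change gave 1.1328 for *Mest*, −1.0234 for *Meg3* and −0.7124 for *Igf2r* on the log2 scale. *Mest* was lower in siBrca1 than in nt at day 3, and *Igf2r* and *Meg3* were higher, while none of the 3 was called different from nt at day 6 (limma, 0 members called, 0 at an unadjusted p below 0.05 and 0 by limma-voom). *Brca1* itself, lower in siBrca1 at day 3, was not called different from nt at day 6, a difference between days of 1.58 (adjusted p = 0.00390), and its part in these values was not tested.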

How the results depend on the processing

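Of 61 called differences of single members, 25 held under all alternatives and 36 were lost in some. The paragraphs on single genes mostly name losses with 1 library left out. *Dlk1* in siBrca1 at day 3, for instance, was also lost with no filter, with only the compared libraries and with no trend. Uncalled differences were counted only against nt at day 3 and in the nt course, and 5 of these were called in some alternatives. Others could be called too, such as *Igf2* in siWdr5 against siBrca1 at day 3 (3 of 8 alternatives other than leaving 1 library out). For knockdowns against nt at day 3, the 16 calls became 1 with a threshold of 2-fold, 9 with no filter on low values and 8 with no trend on mean expression, and were 8 to 20 with 1 library left out. At day 6 the 2 calls became 1 with no trend and 0 to 3 with 1 library left out. Between knockdowns the 16 calls became 3 with the fold threshold, 9 with no filter, 5 with no trend and 7 to 18 with 1 library left out. With the fold threshold the 6 calls of the nt course became 3 and the 18 of the knockdown courses became 7. With 1 library left out they were 5 to 6 and 15 to 20. The 3 calls of a difference between days became 0 with no trend and 0 to 4 with 1 library left out. The cause was not tested. The planned edgeR quasi-likelihood and DESeq2 alternatives were not run, and limma-voom was the test on recovered reads.

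Replicate numbers did not mark a shared source in the labels, and same-numbered libraries deviated together with r of −0.0931 to 0.0721 at day 3 and −0.0696 to 0.26 at day 6. With the replicate block the calls were 17 against nt at day 3, 2 at day 6, 18 between knockdowns, 6 and 18 in the nt and knockdown courses and 4 for differences between days. Directions turned for uncalled differences alone. *Igf2* in the nt course was −0.0773 with the replicate block, and −0.0761 to 0.4302 with 1 library left out. *Igf2* in siBrca1 at day 3 was 0.0084 after centring libraries on the median gene and −0.2901 to 0.2525 with 1 library left out. Leaving out 1 library gave −0.7215 to 0.1578 for *Igf2*, −0.7783 to 0.146 for *Dlk1* and −0.0864 to 0.3506 for *Meg3* in siBard1 at day 3, and −0.3417 to 0.1068 for *Peg3* in the nt course. With 2 libraries per group, leaving 1 out assumes that the remaining library varies like those of the other groups.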
